A study of Homo sapiens with 8 samples.

Results

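The sgRNAs described here are those whose target ID begins with TCONS_, the prefix of transcripts in the Human lincRNA Catalog, in a pooled CRISPRi screen of the colorectal cancer cell line SW620. Membership was set by that prefix alone, although the choice was made with earlier results of these data known. The members number 166 of the 6862 sgRNAs counted, against 24 of the 957 target IDs. The SW620 cells carried a virally delivered fusion of dCas9 and the KRAB repressor domain. Lentivirus brought in the sgRNA pool, in 4 separate infections each followed by puromycin. There were 4 libraries of sgRNA reads from the cells at day 0, before culture, and 4 from cells after culture, which the sample titles call day 17 and the culture time in the labels gives as 18 days. All 8 libraries therefore share the cell line, the dCas9/KRAB fusion, the sgRNA pool and the selection, and the only labelled difference between the groups is the time in culture.

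In CRISPRi a catalytically dead Cas9 is led by the sgRNA to DNA beside a PAM, and the attached KRAB domain recruits chromatin factors that lower transcription from a nearby promoter. When loss of a transcript slows growth, cells with its sgRNAs take a falling share of the culture, so the share of reads from an sgRNA serves as the readout. The Human lincRNA Catalog was assembled from RNA-seq of human tissues and cell lines, and its long intergenic noncoding RNAs are transcripts without a protein product lying apart from protein-coding genes, most of them with no known role.

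Sequences of the sgRNAs at 3 targets are shown because later paragraphs refer to them, and no link between sequence and fold change was tested. Each is printed 5' to 3', with the 12 bases next to the PAM in capitals, the stretch in which mismatches are usually least tolerated. At TCONS_00019237 on chromosome 11, whose start site (TSS) the files place at 10952830 on the plus strand, 7 of the 8 sgRNAs are shown in order along the transcript.
YLQ979: aaaatcacCGCGTCCCCGAG
YLQ980: ctaggaggGAGGGGGCGGAC
YLQ982: ccggcgcgGGCCTCCAGGGC
YLQ983: ccggcctcCGCACACTCCCC
YLQ984: ggacggagCAGCGCGTAACT
YLQ986: ggccgggcTGGTGGAGATGC
YLQ987: ttgctttgGCTCTTTAGCTT

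At TCONS_00013556 on chromosome 7, with its TSS at 100106987 on the plus strand, 3 of the 8 sgRNAs lie end to end with short overlaps and are shown because only the middle one passed the test.
YLQ5253: tgtcctcgTGATGCGGCAGC
YLQ5254: cagctggcTTGCCCCCGGAG
YLQ5255: ctctcagaGCCCCCACTCCG

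At TCONS_00027288 on chromosome 19, with its TSS at 30187464 on the minus strand, all 7 sgRNAs are shown because some of them differ from each other at few bases.
YLQ1829: atgtcaggTGGCTGGGTGTC
YLQ1827: gtttgggtGTCTGGGTGTCC
YLQ1826: tttcttggTGTCAGGTGTCT
YLQ1825: gtctgcatGTCTGGGTATCT
YLQ1824: gtcaggttGTCTGGGTGTCC
YLQ1823: tgtctggtGTTTGAGTGTCT
YLQ1822: tgcctgagTGTCAGGTGTCT

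The 24 targets lie on 14 chromosomes and have a median of 8 sgRNAs each, with 20 of them holding at least 5. The remaining 4 are TCONS_00026909 with 3 sgRNAs, TCONS_00011093 and TCONS_00027489 with 2 each, and TCONS_00024227 with 1. The sgRNAs sit from -246 to 500 bp of the TSS, with a median of 166 bp, against a median of 134 bp for all 6389 targeting sgRNAs. Of the 20 bases of a Catalog sgRNA, between 2 and 18 are G or C, with a median of 11. The letters of 97 sgRNAs read along the target strand and those of 69 against it. In all, 123 of the 166 sgRNAs had at least 100 counts in every day 0 library, which is 74.1% against 70.4% of all targeting sgRNAs.

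The 8 libraries held from 3417248 to 3999875 counts each. Catalog sgRNAs took 2.59% to 2.62% of the counts at day 0 and 2.61% to 2.64% at day 17, so as a set they held their share of the pool. Their median count was 296 to 331 at day 0 and 271 to 317 at day 17. Replicates differed by more than read sampling, with a chi-square per degree of freedom of 4.86 to 5.27 between day 0 libraries and 10.4 to 11.6 between day 17 libraries.

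Of the 158 Catalog sgRNAs with enough counts to test, 2 fell from day 0 to day 17 and none rose at an adjusted p under 0.05 (edgeR quasi-likelihood test, adjusted over all 6587 tested sgRNAs). The share that fell was 1.27%, beside 0.698% of all tested sgRNAs, which is 2 sgRNAs against 46 in the whole pool. The share that rose was 0%, beside 0.0759% of all tested sgRNAs. By unadjusted edgeR p under 0.05, 7 were lower and 9 higher, which is 4.43% and 5.70% beside 3.22% and 2.98% of all tested sgRNAs, and 3.90% and 5.21% of the 461 non-targeting sgRNAs tested. DESeq2 called 4 lower and 1 higher of the 158, beside 1.14% and 0.273% of all tested sgRNAs, whereas the t test named in the methods, on RPM (counts per 1000000 counts of the library) or on log2(RPM + 1), called none after adjustment. Among the 461 non-targeting controls, edgeR called 0 lower and 0 higher.

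The typical Catalog sgRNA stayed near its starting share. The median log2 fold change of day 17 over day 0 was 0.03 over the 158 tested, with the middle of the distribution between -0.10 and 0.16, beside a median of 0.01 for all 6126 targeting sgRNAs tested and 0.00 for non-targeting ones. Values lay below 0 for 67 of the 158, or 42.4%, against 47.2% of all tested sgRNAs and 48.8% of the non-targeting ones. Among the 123 well-counted Catalog sgRNAs the SD of the log2 fold change was 0.32, and it was 0.18 over the 121 of them that were not called, so 2 sgRNAs made up much of that spread. By position, the median was 0.09 for the 28 upstream of the TSS, 0.03 for the 31 within 100 bp downstream, 0.02 for the 84 past 100 and up to 300 bp and -0.02 for the 15 beyond 300 bp. The medians were 0.02 for the 91 sgRNAs reading along the target and 0.03 for the 67 reading against it. By G and C content, the median was 0.01 for the 54 with at most 9 such bases, 0.06 for the 65 with 10 to 12 and -0.02 for the 39 with 13 or more, and the SD was 0.28, 0.20 and 0.50 in that order. Both called sgRNAs belong to the last of these classes, so its SD of 0.50 includes them.

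YLQ982, which targets TCONS_00019237, lost most of its reads. At day 0 it stood at 51.3, 70.002, 38.0 and 49.4 RPM in replicates 1 to 4, and at day 17 at 4.93, 6.93, 17.4 and 3.80 RPM. Every day 17 library lay below every day 0 library, and replicate 3 had kept the most. The mean went from 52.2 ± 13.2 to 8.27 ± 6.23 RPM (SD, n = 4 libraries each), a log2 fold change of -2.65 (SE 0.34) with an edgeR adjusted p of 1.3e-06, and this is the lowest value among the 4501 targeting sgRNAs with at least 100 counts in every day 0 library. Leaving out any single library kept the call, with log2 fold changes from -3.30 without day 17 replicate 3 to -2.41 without day 17 replicate 4. The exact permutation test on log2(RPM + 1) gave a two-sided p of 0.0286, the smallest that 4 libraries against 4 allow. Any sgRNA whose groups do not overlap gets this same p, so it adds nothing to the lack of overlap.

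None of the other 7 sgRNAs of TCONS_00019237 passed the test. For 6 of them the log2 fold change was 0.06 for YLQ979 at -44 bp, -0.16 for YLQ980 at 69 bp, -0.05 for YLQ983 at 208 bp, -0.24 for YLQ984 at 227 bp, 0.09 for YLQ986 at 259 bp and -0.02 for YLQ987 at 295 bp. The lowest adjusted p among these 7 was 0.901 (edgeR), for YLQ984. The value of YLQ980 was -0.47 without day 17 replicate 1, its highest day 17 library. YLQ982 itself sits at 138 bp, at position 10952968 in the files, reads along the target and holds 18 G or C bases, the most of any Catalog sgRNA. The most abundant sgRNA, YLQ983, was at 754 RPM at day 0 and 723 RPM at day 17 and took 46.7% of the counts of the target. Summed over its 8 sgRNAs, TCONS_00019237 went from 1612 ± 29.8 to 1535 ± 93.7 RPM (SD, n = 4), a log2 fold change of -0.07 (SE 0.04, edgeR adjusted p 0.807 over 953 target sums), and the libraries of the groups overlapped.

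The site of YLQ982 can be placed on the genome, since its letters and those of YLQ980, YLQ983 and YLQ984 occur with an NGG PAM in the RefSeq promoter window of LOC105379882, a lncRNA gene on the plus strand of chromosome 11. The window runs from 250 bases before the annotated start to 50 after it. The site of YLQ982 and its GGG PAM are printed in capitals with 50 bases on each side, at chr11:10931372-10931494 of GRCh38.p14 on the plus strand.
YLQ982 site: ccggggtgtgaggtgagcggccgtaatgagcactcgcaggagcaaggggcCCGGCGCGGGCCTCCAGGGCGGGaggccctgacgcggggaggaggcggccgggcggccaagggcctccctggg

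Of the whole window 74.7% is G or C, and it holds 31 CpG dinucleotides, against medians of 58.7% and 14 over the 35116 RefSeq promoter windows. The first base of YLQ982 is at position -92 from the RefSeq start, upstream of it, although the files place it downstream of the TCONS_00019237 TSS. YLQ980 begins at -161 and YLQ984 at -3 by the same count. YLQ983 reads against the target, and the end of its site next to the PAM is at -22. Thus sgRNAs that did not pass the test lie on both sides of YLQ982 in the same window. The only other RefSeq gene within 30 kb is LOC107984309, also a lncRNA, which overlaps the window.

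YLQ5254, the other sgRNA that fell, targets TCONS_00013556 at 235 bp, or 100107222 in the files. Its day 0 libraries stood at 44.3, 46.8, 31.1 and 47.9 RPM and its day 17 libraries at 16.1, 21.4, 13.9 and 19.3 RPM. The groups did not overlap, and all 4 day 17 values were within 7.5 RPM of each other. The mean went from 42.5 ± 7.74 to 17.7 ± 3.31 RPM (SD, n = 4), a log2 fold change of -1.25 (SE 0.27) with an edgeR adjusted p of 0.0065. This call did not hold in every subset: the adjusted p was 0.0553 without day 0 replicate 1, 0.0593 without replicate 2 and 0.0638 without replicate 4, with log2 fold changes of -1.24, -1.21 and -1.19.

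YLQ5254 shares bases with both of its neighbours. The 3 sites join into 1 run of 51 bases, from 219 to 269 bp of the TSS, printed on the target strand with the YLQ5254 site and its TGG PAM in capitals.
YLQ5253 to YLQ5255: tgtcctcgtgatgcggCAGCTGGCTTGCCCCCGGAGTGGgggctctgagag

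YLQ5253, which begins at 219 bp and shares 4 bases with YLQ5254, had a log2 fold change of 0.03 (SE 0.11), with 226 RPM at day 0 and 230 RPM at day 17, and -0.10 without day 17 replicate 4. YLQ5255 reads against the target, and its site starts at 250 bp along the target and shares 5 bases with YLQ5254. It stood at 91.1, 68.0, 80.1 and 105.7 RPM at day 0 and 61.5, 61.2, 57.2 and 48.6 RPM at day 17. Its groups did not overlap, but its log2 fold change of -0.58 (SE 0.17) had an edgeR adjusted p of 0.187, while DESeq2 gave 0.0259. The differences between these 3 neighbours were not tested, since they were set side by side after their values were seen. For the other 5 sgRNAs of this target the value was 0.23 for YLQ5247 at -19 bp, 0.14 for YLQ5249 at 29 bp, -0.03 for YLQ5250 at 78 bp, -0.09 for YLQ5251 at 180 bp and 0.04 for YLQ5252 at 195 bp, and none passed the test. Over all 8, TCONS_00013556 had a median log2 fold change of 0.00, and its summed counts went from 987 ± 38.6 to 950 ± 48.1 RPM (SD, n = 4), a log2 fold change of -0.05 (edgeR adjusted p 0.894).

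By the thresholds drawn in the study, a log2 fold change past 0.58 in size together with an unadjusted p under 0.05, 3 Catalog sgRNAs were lower and 3 higher by the edgeR fit, 1.90% in each direction beside 1.56% and 0.622% of all tested sgRNAs and 1.52% and 1.08% of the non-targeting ones. The lower ones were YLQ982, YLQ5254 and YLQ5255, so all of them belong to the 2 targets above. The higher ones were YLQ1824 of TCONS_00027288, YLQ1112 of TCONS_00026750 and YLQ1730 of TCONS_00011767, each the only such sgRNA of its target. Every day 17 library lay below every day 0 library for 6 Catalog sgRNAs, 3.80% beside 2.75% of all tested sgRNAs, and above for 4, 2.53% beside 1.75%. Of the non-targeting sgRNAs, 2.82% lay apart in each direction.

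YLQ1824 stood at 45.5, 51.5, 39.8 and 37.7 RPM at day 0 and 81.5, 52.2, 60.6 and 78.1 RPM at day 17. The groups did not overlap, although day 17 replicate 2 was only 0.73 RPM above the highest day 0 library. The mean went from 43.6 ± 6.20 to 68.1 ± 14.0 RPM (SD, n = 4), a log2 fold change of 0.65 (SE 0.20) with an edgeR adjusted p of 0.190 and a DESeq2 adjusted p of 0.0346. YLQ1827 has the same 12 bases next to the PAM and differs from YLQ1824 at 3 of the first 8, and its log2 fold change was 0.03 (SE 0.15), with 92.1 RPM at day 0 and 93.1 RPM at day 17. This pair was chosen after its values were seen and was not tested against each other.

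At TCONS_00027288 some sgRNAs have closely similar letters. All 7 read along the target and all 7 hold TGTC or its reverse complement GACA, a 4-base string found on either strand in 15.0% of the 6862 sgRNAs of the pool. The nearest other sgRNA in the pool was at most 4 mismatches away for 5 of the 166 Catalog sgRNAs, against a median of 7, and 4 of those 5 are YLQ1822, YLQ1824, YLQ1826 and YLQ1827 of this target. YLQ1825 is 5 mismatches from its nearest, and YLQ1823 and YLQ1829 are 7, no closer than the median. How reads with sequencing errors were assigned between such sgRNAs is not given in the sources used here. YLQ1823, the most abundant Catalog sgRNA, stood at 1174, 1211, 1199 and 1176 RPM at day 0 and at 1226, 1270, 1229 and 1268 RPM at day 17. Its groups did not overlap, with a log2 fold change of 0.08 and an edgeR adjusted p of 0.839. The remaining 4 had log2 fold changes from -0.11 for YLQ1822 to 0.09 for YLQ1829. The summed counts went from 2375 ± 19.1 to 2470 ± 77.8 RPM (SD, n = 4), a log2 fold change of 0.06 (edgeR adjusted p 0.705), with 50.1% of them from YLQ1823.

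Summed over sgRNAs, none of the 24 Catalog targets fell or rose at an adjusted p under 0.05 by edgeR, beside 0.944% of all 953 target sums that fell and 0% that rose. By unadjusted edgeR p under 0.05, 1 was lower and 3 were higher, which is 4.17% and 12.5% beside 4.09% and 2.83% of all target sums. DESeq2 called 1 lower and 1 higher of the 24, beside 1.89% and 0.42% of all target sums, and the t tests called none. The log2 fold changes of the sums ran from -0.17 for TCONS_00026302 to 0.15 for TCONS_00024227, with a median of 0.01 and an SD of 0.07, beside a median of 0.00 and an SD of 0.12 over all 953. Every day 17 sum lay below every day 0 sum at 2 targets, TCONS_00026302 and TCONS_00009211, and above at 2 others, TCONS_00013648 and TCONS_00014803, 8.33% each way beside 3.15% and 1.99% of all sums. The median log2 fold change over the sgRNAs of a target was positive for 16 targets and negative for 8. This split was not computed over all targets of the pool, and only 21 of the 24 had at least 3 tested sgRNAs.

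TCONS_00026302 on chromosome 18, with its TSS at 24003099 on the plus strand, had the lowest summed and the lowest median log2 fold change of the Catalog. Its 5 sgRNAs together stood at 741, 695, 705 and 721 RPM at day 0 and at 629, 614, 648 and 654 RPM at day 17. The groups did not overlap, and the sum went from 715 ± 20.2 to 636 ± 18.4 RPM (SD, n = 4), a log2 fold change of -0.17 (SE 0.06). The adjusted p was 0.206 by edgeR and 0.0150 by DESeq2. YLQ1456, at -46 bp, took 51.5% of these counts. It stood at 402, 367, 349 and 355 RPM at day 0 and at 301, 299.6, 308 and 319 RPM at day 17, again without overlap, a log2 fold change of -0.25 (SE 0.08, adjusted p 0.210 by edgeR and 0.0168 by DESeq2). The log2 fold change was -0.22 for YLQ1458, 0.07 for YLQ1459, -0.21 for YLQ1462 and -0.01 for YLQ1464. Without YLQ1456 the summed log2 fold change was -0.08 with an edgeR adjusted p of 0.867, so that 1 sgRNA carried most of the difference.

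TCONS_00013648 on chromosome 7, with its TSS at 154995523 on the plus strand, had the lowest p among the sums that were higher at day 17. Its 7 sgRNAs together stood at 1107, 1121, 1088 and 1089 RPM at day 0 and at 1198, 1160, 1212 and 1222 RPM at day 17. The day 17 libraries were all above the day 0 libraries, and the sum went from 1101 ± 15.9 to 1198 ± 27.1 RPM (SD, n = 4), a log2 fold change of 0.12 (SE 0.04) with an adjusted p of 0.229 by edgeR and 0.0150 by DESeq2. Of the 7 sgRNAs, 6 had log2 fold changes above 0, from 0.11 to 0.28. The 2 most abundant, YLQ6590 and YLQ6591, made up 88.0 of the net 97.0 RPM, and without the most abundant one the log2 fold change of the sum was 0.13 (edgeR adjusted p 0.512). The exception was YLQ6597, at 238 bp, with a log2 fold change of -0.40 (edgeR adjusted p 0.804).

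TCONS_00014803 and TCONS_00001888 were the other 2 sums with an unadjusted p under 0.05. TCONS_00014803, on chromosome 8, had 8 of its 9 sgRNAs above 0, the highest median of the Catalog at 0.21, and a summed log2 fold change of 0.06 (edgeR adjusted p 0.670). Its most abundant sgRNA held 51.9% of the sum at day 0 and had a log2 fold change of 0.01. Without that sgRNA the summed log2 fold change was 0.13. TCONS_00001888, on chromosome 1, went from 939 ± 21.8 to 1000 ± 40.0 RPM (SD, n = 4), a log2 fold change of 0.09 (edgeR adjusted p 0.705), with 5 of 8 sgRNAs above 0. In the RefSeq promoter window of LINC03108 lie 2 of its sgRNAs, YLQ7229 with a log2 fold change of 0.09 and YLQ7230 with -0.34.

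At UCA1, a lncRNA of chromosome 19 known for its high level in bladder cancer, the pool held 3 Catalog IDs. The TSS of TCONS_00026750 (15939756) and that of TCONS_00027489 (15939789) are 33 bp apart, and TCONS_00026909 (15945758) starts further along the same strand. YLQ1121 of TCONS_00026909 occurs in the promoter window of LOC124900418, which overlaps UCA1 in RefSeq, and lies 5975 bp from the TSS of TCONS_00026750 in the files and 5975 bp from the start of UCA1 in RefSeq. None of the 12 sgRNAs against these IDs passed the test, and the summed log2 fold changes were -0.03 for TCONS_00026750, -0.04 for TCONS_00027489 and 0.00 for TCONS_00026909. The 12 ranged from -0.20 for YLQ1114 to 0.66 for YLQ1112. YLQ1112, at 424 bp, stood at 28.8, 22.0, 29.4 and 22.9 RPM at day 0 and 34.5, 44.4, 38.3 and 44.5 RPM at day 17. Its groups did not overlap, and the edgeR adjusted p was 0.508. YLQ1110, at 289 bp of the same TSS, stood at 306 ± 9.39 RPM at day 0 and 268 ± 16.5 RPM at day 17 (SD, n = 4) without overlap, with a log2 fold change of -0.18 (edgeR adjusted p 0.771). Further IDs of the pool from Ensembl start 140 and 61 bp from TCONS_00026909, and their summed log2 fold changes were 0.09 and -0.12 (edgeR adjusted p 0.851 and 0.810).

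At LINC01018, a lncRNA gene of chromosome 5 with the RNA methyltransferase gene NSUN2 within 30 kb, 2 Catalog IDs start 806 bp apart on the same strand. TCONS_00010611 is the upstream one, with its TSS at 6582603, and 6 of its 7 tested sgRNAs were above 0, with a median of 0.10 and a summed log2 fold change of 0.04 (edgeR adjusted p 0.916). TCONS_00009211, with its TSS at 6583409 and YLQ767 in the RefSeq window, had 7 of 8 tested sgRNAs below 0, with a median of -0.06. Its sum stood at 2022, 1995, 2021 and 2004 RPM at day 0 and 1984, 1842, 1947 and 1990 RPM at day 17. The groups did not overlap, by a margin of 4.3 RPM, and the log2 fold change was -0.05 (edgeR adjusted p 0.851). The difference between these 2 neighbouring IDs was not tested.

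On chromosome 16, TCONS_00024226 and TCONS_00024227 start 117 bp apart. The 7 sgRNAs of the first ranged from -0.04 to 0.28 with a summed log2 fold change of -0.01, and YLQ3323, the single sgRNA of the second, had 0.16 (edgeR adjusted p 0.943). TCONS_00011093 on chromosome 5, whose 2 sgRNAs occur in the RefSeq window of LINC01485, rests on YLQ6816 alone, with a log2 fold change of 0.00, since YLQ6815 had too few counts. An Ensembl ID of the pool starts 27 bp from it and had a summed log2 fold change of -0.07 (edgeR adjusted p 0.713). TCONS_00021415 on chromosome 12 has YLQ5667 and YLQ5668 in the RefSeq window of LINC02440, with log2 fold changes of -0.20 and 0.12, and its sum was at -0.01.

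The other 8 targets had no called sgRNA and no sum past an unadjusted p of 0.05. They are TCONS_00008717, TCONS_00011767, TCONS_00014512, TCONS_00015544, TCONS_00016543, TCONS_00017307, TCONS_00022614 and TCONS_00024435, and their summed log2 fold changes ran from -0.04 for TCONS_00008717 to 0.08 for TCONS_00022614. Among their sgRNAs with at least 100 counts in every day 0 library, the log2 fold changes farthest below and above 0 included YLQ7010 of TCONS_00008717 at -0.55, YLQ1447 of TCONS_00016543 at -0.31, YLQ5164 of TCONS_00022614 at 0.36 and YLQ3530 of TCONS_00024435 at 0.34. YLQ7010 stood at 28.0, 42.3, 47.2 and 50.7 RPM at day 0 and 43.6, 21.9, 20.6 and 27.5 RPM at day 17, so the groups overlapped, and the edgeR adjusted p was 0.775. Single libraries weighed on these values: without day 17 replicate 1 YLQ7010 was at -0.84, and without day 17 replicate 3 YLQ1447 was at -0.64 and YLQ5164 at 0.18. YLQ3530 stood at 54.8, 49.0, 44.7 and 48.9 RPM at day 0 and 62.5, 57.7, 59.2 and 69.1 RPM at day 17 without overlap, with an edgeR adjusted p of 0.839. YLQ1730 of TCONS_00011767 stood at 28.5, 25.5, 21.03 and 35.7 RPM at day 0 and 28.8, 60.6, 31.3 and 45.7 RPM at day 17, overlapping, with a log2 fold change of 0.60 (edgeR adjusted p 0.717). YLQ5223 of TCONS_00014803, YLQ6380 of TCONS_00015544 and YLQ5166 of TCONS_00022614 were at 0.35, 0.33 and 0.32.

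Among sgRNAs with fewer counts the values scattered more. The 35 tested Catalog sgRNAs with under 100 counts in a day 0 library had a median log2 fold change of -0.14 and an SD of 0.38, and 5 of them lay beyond 0.58 against 4 of the 123 well-counted ones. YLQ5163 of TCONS_00022614, named after its values were seen, had 83, 58, 35 and 43 counts at day 0 and 37, 14, 33 and 22 at day 17. As RPM its groups did not overlap, with a log2 fold change of -0.91 and an edgeR adjusted p of 0.836. A further 8 sgRNAs were too rare to test. Of these, YLQ7007 of TCONS_00008717 had 9, 0, 4 and 2 counts at day 0 and YLQ1450 of TCONS_00016543 had 9, 9, 0 and 3, and both had 0 in all 4 day 17 libraries, where a count of 0 allows up to 3 counts, or 0.779 to 0.878 RPM. At that depth no difference could be measured, and no fold is given. YLQ763 of TCONS_00010611 and YLQ1453 of TCONS_00016543 had a single count each over all 8 libraries.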

How the data were processed

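The authors recovered the sgRNA cassette from the cells' DNA by PCR and sequencing, and the values they deposited are unnormalized counts of reads for each sgRNA, with every library in its own file. Each file gives the sgRNA, target, TSS, position and strand beside the count, and there were 0 unused sample columns. FastQC 0.11.2, Bowtie and hg38 stand in the submitters' processing notes without roles, and how reads were assigned to sgRNAs is not given in the sources used here. File positions are printed as deposited: the letters of 13 Catalog sgRNAs were found in RefSeq promoter windows (GRCh38.p14, exact match with an NGG PAM), 0 of them at the file position, so the build stays unnamed. In all 13 the letters read along the strand opposite to the strand column, and "along" and "against" follow the letters.

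Counts of all 6862 sgRNAs were joined by ID, filtered with filterByExpr (6587 left) and tested with edgeR 4.0.16 (R 4.3.3): TMM factors on library totals (0.993 to 1.01), quasi-likelihood F test of day 17 against day 0, without a block, and Benjamini-Hochberg adjustment over all tested sgRNAs. Counts summed per target were tested likewise over 953 of 957 targets. RPM are counts per 1000000 counts of the library. DESeq2 1.42.0, other scalings, other filters, the replicate block, the t test of the methods, each library left out in turn and target sums without the most abundant sgRNA were the alternatives. The procedure was tested on simulated data, with 50 sgRNAs changed by each fold. Every sgRNA was drawn with the same dispersion (spread beyond read sampling) in both groups. It called 92% of those lowered to 0.5 of their level, 10% of those lowered to 0.75 and 44% of those raised to 1.5. Modest changes could therefore go uncalled. Of the 129 calls in the simulation, 6 were of unchanged sgRNAs. The real day 17 libraries scattered more than the day 0 ones, so the rates in the screen may differ.

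Depth was 3417248 to 3999875 counts per library. The counts are PCR reads without molecular identifiers, so floors cover counting error only. Titles number 4 replicates at each time, and p-values rest on the spread between these 4 libraries per group. In edgeR and DESeq2 that spread is moderated by the spread of all tested sgRNAs or target sums, and in the t tests it is not. Members and lists were chosen with earlier results of these data known. By the naming rule, the text gives every Catalog target, every called sgRNA with the reported others of its target, the 6 lowest and 6 highest log2 fold changes among sgRNAs with at least 100 counts in each day 0 library, the sgRNAs past an unadjusted p of 0.05 and a log2 fold change beyond 0.58, and IDs starting within 5 kb of each other. sgRNAs named for non-overlapping groups or for a DESeq2 call, and those with RefSeq matches, were named after their values were seen. No sequence of chromosome 8 is printed, and 1 sgRNA of TCONS_00019237 is not reported here.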

Additional observations from a re-analysis of the deposited data

Results flagged for a closer look

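A library far from the other 3 of its group turned up in 3 of 110 groups of 4 values examined over the named sgRNAs and the target sums (2.73%), where chance gives about 5%. YLQ980 of TCONS_00019237 stood at 46.7 RPM in day 17 replicate 1, against 21.4, 25.5 and 25.7 RPM in the others. The single sgRNA of TCONS_00024227 stood at 153.9 RPM in day 17 replicate 4, against 107.9, 113.4 and 115.8 RPM. The summed counts of TCONS_00014512 stood at 759 RPM in day 0 replicate 2, against 772, 774 and 774 RPM, a gap that is large only beside the narrow range of the other 3 libraries.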

How the results depend on the processing

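The count of 2 depleted Catalog sgRNAs was unchanged with total-count or non-targeting scaling and with either filter, was 4 with DESeq2 (YLQ982, YLQ5254, YLQ5255 and YLQ1456) and 0 with both t tests, and ranged from 1 to 2 with 1 library left out. The count of 0 enriched sgRNAs became 1 with DESeq2 (YLQ1824) and stayed at 0 to 0 with 1 library left out. Among target sums, DESeq2 gave 1 depleted (TCONS_00026302) and 1 enriched (TCONS_00013648), where every other alternative gave 0. Several summed log2 fold changes moved without the most abundant sgRNA of the target. They went from 0.08 to 0.19 for TCONS_00022614, from 0.06 to -0.01 for TCONS_00017307 and from -0.04 to -0.17 for TCONS_00027489. The median log2 fold change of 0.03 was 0.01 without day 17 replicate 3, and leaving out 1 library gave 0.0075 to 0.0406. YLQ982 had an adjusted p of 0.186 by the t test on log2(RPM + 1) and 0.155 on RPM, and YLQ5254 0.135 and 0.158. Neither called sgRNA changed sign under any alternative, while 11 of 492 values of the named sgRNAs and 22 of 406 of the targets did. In the whole pool, depleted and enriched sgRNAs numbered 46 and 5, against 75 and 18 with DESeq2, 6 and 0 or 22 and 0 with the t tests, and 47 and 2 with total-count or non-targeting scaling, with 0 to 7 enriched when 1 library was left out. Depleted target sums numbered 9, against 18 with DESeq2, which also called 4 enriched, 3 with either t test, 5 without the most abundant sgRNA and 5 to 13 with 1 library left out. The causes were not tested.

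Samples share only a replicate number: deviations of same-numbered libraries correlated at 0.0849 to 0.115 over well-counted sgRNAs and those of other numbers at -0.0582 to -0.0115, so each library correlated best with its own number, a hint from the data and not from the design. With the replicate block the counts of called Catalog sgRNAs and targets stayed at 2, 0, 0 and 0, the median was 0.0212, and the pool had 52 depleted and 7 enriched sgRNAs. Depth sets a limit too: 43 Catalog sgRNAs fell under 100 counts in a day 0 library, and 8 were not tested.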
